A study of Homo sapiens with 6 samples.

Results

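Interferon signalling was examined as 50 genes in a pair of cybrids, 20 that carry or sense the signal and 30 that the signal induces. The signalling genes are the receptor chains IFNAR1, IFNAR2, IFNGR1 and IFNGR2, the kinases JAK1, JAK2 and TYK2, the transcription factors STAT2, STAT3, IRF1, IRF2, IRF3, IRF7 and IRF9, and the nucleic acid sensing genes RIGI, IFIH1, MAVS, STING1, CGAS and TLR3. The induced genes are the IFIT, IFI, IFITM, MX, OAS, PARP and GBP genes named below with ISG15, ISG20, USP18, BST2, XAF1, DDX60 and SP110. They were chosen by gene symbol, and 102 of the 41091 probe sets with 1 gene name were theirs. Of the 50 genes, 49 had such a probe set, among 19775 genes measured in all. STAT2 was not analysed here.

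Cells that detect foreign or misplaced nucleic acid make interferons. RIGI and IFIH1 detect RNA and signal through MAVS on the mitochondrial outer membrane, CGAS detects DNA in the cytosol and signals through STING1, and both routes activate IRF3 and IRF7, which switch on interferon genes. Secreted type I interferon binds IFNAR1 and IFNAR2, type II binds IFNGR1 and IFNGR2, and JAK kinases at these receptors activate STAT factors that, with IRF9 in the type I pathway, bind response elements in the promoters of induced antiviral genes.

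A cybrid is a cell made by fusing an enucleated donor of mitochondria with a cell that has lost its mitochondrial DNA. Both cybrids had the nucleus of 143B p0, the mitochondrial-DNA-free form of the human osteosarcoma line 143B, which lacks thymidine kinase. In 10A/143B the mitochondria came from MCF10A, a non-cancerous mammary epithelial line, and in 468/143B from MDA-MB-468, a metastatic breast cancer line. Donors were enucleated by overnight treatment with actinomycin-D, fused with polyethylene glycol and selected in bromodeoxyuridine without uridine, so both groups share the nucleus, the fusion and the selection. Neither cybrid was treated with interferon, as far as the labels say. The labels do not say whether a cybrid was 1 clone or a pool, and their 143B/143B cybrid was not analysed here. The title of the series asks whether non-cancerous mitochondria lower oncogenic pathways.

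Triplicate RNA extracts of each cybrid were hybridised to 6 Affymetrix HG-U133 Plus 2.0 arrays, 3 a group. The deposited values are intensities on a linear scale, and no value is a count. Array medians ran from 21.7 to 24.4 in 10A/143B and from 20.4 to 21.4 in 468/143B. Replicates 2 and 3 of each group were near duplicates, so each adjusted p is followed by one from a fit with that pair averaged (2 samples against 2). Both are from limma, with Benjamini-Hochberg adjustment over all 19775 genes at 0.05. Differences are 10A/143B minus 468/143B on the log2(intensity + 16) scale, which makes the change of dim genes look smaller, and folds are on that scale too. A ± after a difference is the standard error of the fit (SE, n = 3 arrays a group). Nothing says that replicates came from separate cultures, so the spread behind the p-values may be technical, between arrays or extracts alone. VIM, a mesenchymal filament gene that a 143B nucleus should express, had mean intensities of 8687 and 8418 in 10A/143B and 468/143B, and KRT5, a basal keratin, had 1.00 and 1.36, beside a lowest deposited value of 1. Of 9 epithelial markers, 2 were at or above the median level of all probe sets in their brighter cybrid. These were KRT15, at 109 and 75.5, and EPCAM, at 55.3 and 36.8. The osteoblast factor SP7 was at 9.50 and 11.7. TK1, thymidine kinase, read 208 and 399 (-0.89 ± 0.08, adjusted p = 6.6e-05, or 0.00302 averaged), although the line 143B is deficient in the enzyme.

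The interferon genes did not move one way. In bulk RNA, fewer cells that express a gene and less RNA per cell cannot be told apart. Of the 19 signalling genes, 4 were higher in 10A/143B (IFNAR1, JAK2, IFIH1 and MAVS) and 7 lower (TYK2, STAT3, IRF2, IRF3, IRF7, STING1 and CGAS). Of the 30 induced genes, 5 were higher (IFIT5, IFI16, DDX60, PARP9 and PARP14) and 9 lower (IFIT2, IFIT3, IFI6, IFITM1, IFITM2, IFITM3, ISG15, GBP2 and SP110). Together 18.4% of the 49 genes were higher and 32.7% lower, beside 19.9% higher and 15.7% lower among all genes. Their median difference was -0.24, -0.19 for the signalling genes and -0.25 for the induced ones, against -0.02 over all genes. With the near duplicates averaged, 8 were higher and 8 lower (16.3% each), where 13.8% of all genes were higher and 8.9% lower. With the replicate number as a block in that averaged fit, 3 signalling and 5 induced genes were higher and 6 and 7 lower, where 17.8% of all genes were higher and 13.8% lower. The block restored TYK2, IRF2, STING1, IFIT2 and IFITM1, whose p in it is given below as averaged and blocked. Among genes at or above the median level of all probe sets, 22.5% of 40 members were higher and 42.5% lower, against 30.6% and 24.8% of all such genes. Scaling the arrays to one distribution (quantile normalization) left 4 higher and 8 lower signalling genes and 5 higher and 11 lower induced genes, and the share of higher genes among all calls went from 55.8% to 45.7%. With each array centred on its median the counts were 4 and 7, and 5 and 10, and that share was 46.0%. The 25 genes were spread over the receptors, kinases, factors and sensors and over most induced families.

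**Figure D1:**
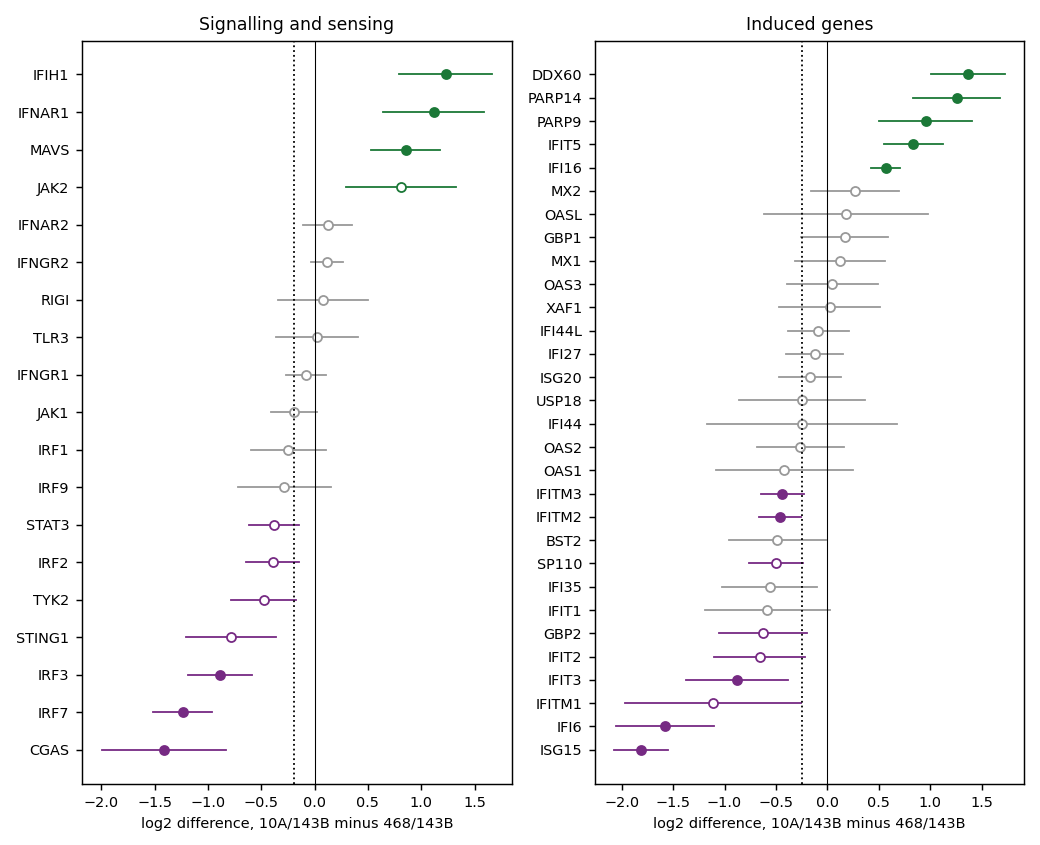
Log2 difference of each gene, 10A/143B minus 468/143B (x axis), with its 95% interval from the limma fit on 6 arrays, for 19 signalling genes (left) and 30 induced genes (right). Green points passed as higher and purple as lower in 10A/143B, filled points also with replicates 2 and 3 averaged, grey points did not pass, and the dotted line is the median of each list (-0.19 and -0.25). ISG15 lies lowest at -1.81 and DDX60 highest at 1.36.

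At the receptors, 1 of 4 chains passed on the probe set used, where 35.6% of all genes passed. IFNAR1, the chain of the type I receptor that binds TYK2, had intensities of 61.0, 47.8 and 54.6 in 10A/143B and 10.1, 20.7 and 19.7 in 468/143B, for replicates 1, 2 and 3 in that order here and below. Every 10A/143B array was above every 468/143B array, and the level was 2.17-fold higher in 10A/143B (1.12 ± 0.21, adjusted p = 0.00271, or 0.0245 averaged). Another IFNAR1 probe set was higher as well, 40.2 against 9.88 in mean intensity (1.12, adjusted p = 0.00192 over all probe sets). The remaining IFNAR1 probe sets did not pass, at 22.1 against 11.5 (0.46, adjusted p = 0.0807) and 20.7 against 28.9 (-0.34, adjusted p = 0.371). IFNAR2, the other type I chain, read 217, 209 and 184 in 10A/143B and 184, 190.0 and 181 in 468/143B. These values overlapped, with a difference of 0.12 (95% interval -0.11 to 0.35, adjusted p = 0.41, or 0.609 averaged). Its other probe sets differed from that. One read 159 against 47.7 (mean intensities, 1.46, adjusted p = 6.9e-05 over all probe sets) and one 185 against 63.7 (1.49, adjusted p = 0.0161). IFNAR2 therefore passed as higher on these probe sets and not on the one used, which has the highest mean intensity of its probe sets (the rule for every gene).

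The type II receptor genes overlapped between the cybrids. IFNGR1, the chain that binds interferon gamma, read 393, 367 and 362 in 10A/143B and 428, 396 and 369.6 in 468/143B, a difference of -0.08 (95% interval -0.27 to 0.10, adjusted p = 0.499, or 0.705 averaged). IFNGR2, the accessory chain, read 826, 929 and 917 in 10A/143B and 826, 820.3 and 809 in 468/143B, a difference of 0.12 (95% interval -0.03 to 0.27, adjusted p = 0.216, or 0.652 averaged). A change of IFNGR1 or IFNGR2 beyond these intervals was not seen on the probe set used. Without 10A/143B replicate 1, IFNGR2 passed as higher (0.17, limma adjusted p = 0.0246). The other IFNGR1 probe sets did not pass, at 0.01 and 0.45 (adjusted p = 0.987 and 0.115 over all probe sets).

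Of the receptor kinases, JAK2 was higher in 10A/143B and TYK2 lower with 6 arrays, and neither passed in the averaged fit without the block. JAK1, which serves both receptor types, read 1068, 838 and 861 in 10A/143B and 1038, 1089.9 and 1024 in 468/143B. The groups overlapped, with a difference of -0.19 (95% interval -0.41 to 0.02, adjusted p = 0.156, or 0.547 averaged). Another JAK1 probe set was lower in 10A/143B, 55.3 against 182 (-1.48, adjusted p = 0.000154 over all probe sets). TYK2, the kinase of IFNAR1, read 219.8, 300.2 and 292 in 10A/143B and 340.1, 422 and 383 in 468/143B. The groups did not overlap and the difference was -0.48 ± 0.13, adjusted p = 0.0208, or 0.0808 averaged, or 0.00953 averaged and blocked. JAK2, the kinase of IFNGR2, had mean intensities of 58.5 and 26.7 (0.81 ± 0.22, adjusted p = 0.0216, or 0.206 averaged), and its other probe sets passed as higher too (1.16 and 0.76, adjusted p = 0.00193 and 0.0212 over all probe sets). The 20 nearest measured genes around TYK2 on chromosome 19, none of them of the 50, had a median difference of -0.38.

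STAT3, a factor activated by many cytokines and by interferon, was lower in 10A/143B with 6 arrays, at means of 286 and 379 (-0.38 ± 0.10, adjusted p = 0.0192, or 0.182 averaged).

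The interferon regulatory factors gave 3 of 5 genes that were lower in 10A/143B and 0 higher (0 also at an unadjusted limma p under 0.05). With replicates 2 and 3 averaged, 2 were lower. Over all genes 15.7% were lower and 19.9% higher, or 8.9% and 13.8% averaged. IRF3, which sensors activate by phosphorylation, read 212, 300.2 and 292 in 10A/143B and 461, 534 and 519 in 468/143B, and no arrays overlapped. It was 1.85-fold lower (-0.89 ± 0.13, adjusted p = 0.000811, or 0.00734 averaged). Its 20 neighbours on chromosome 19 had a median of -0.48. IRF7, which amplifies type I interferon production and is itself interferon-induced, read 86.2, 74.0 and 74.0 in 10A/143B and 219.8, 201 and 197 in 468/143B. The lowest 468/143B array was far above the highest 10A/143B array, and the level was 2.36-fold lower (-1.24 ± 0.12, adjusted p = 8.02e-05, or 0.00398 averaged). Its neighbours on chromosome 11 had a median of -0.13.

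IRF9, the DNA-binding partner of the activated STAT pair in type I signalling, read 85.0, 71.0 and 78.8 in 10A/143B and 131, 77.2 and 93.7 in 468/143B. Replicates 1 and 3 of 468/143B stood above the 10A/143B arrays and replicate 2 among them, and the difference was -0.28 (95% interval -0.72 to 0.16, adjusted p = 0.312, or 0.451 averaged). IRF1, an activator of antiviral genes, had mean intensities of 86.1 and 105 and did not pass (-0.24, adjusted p = 0.272). IRF2, which can repress genes that IRF1 activates, had means of 275 and 368 and passed as lower with 6 arrays (-0.39 ± 0.11, adjusted p = 0.0211, or 0.0593 averaged, or 0.0235 averaged and blocked). The 20 neighbours of IRF2 on chromosome 4 went the other way, with a median of 0.53.

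Among the sensing genes, IFIH1 and MAVS of the RNA route were higher in 10A/143B, and CGAS and STING1 of the DNA route were lower. That holds for the probe set used of each gene. Of the 6 sensing genes 33.3% were higher and 33.3% lower, or 33.3% and 16.7% averaged. Over all genes the shares were 19.9% and 15.7%, or 13.8% and 8.9% averaged. IFIH1 (MDA5, a sensor of long double-stranded RNA) read 61.8, 69.6 and 66.3 in 10A/143B and 22.0, 13.1 and 22.5 in 468/143B. No arrays overlapped, and IFIH1 was 2.34-fold higher in 10A/143B (1.23 ± 0.19, adjusted p = 0.00102, or 0.0216 averaged). The other IFIH1 probe sets were dim and did not pass (-0.03 and -0.07, adjusted p = 0.923 and 0.758 over all probe sets). MAVS, the mitochondrial adaptor of RIGI and IFIH1, read 343, 471 and 458 in 10A/143B and 194, 234 and 251 in 468/143B. It was 1.81-fold higher with no overlap (0.85 ± 0.14, adjusted p = 0.00145, or 0.0152 averaged). Of its other probe sets, 1 passed, also as higher (0.79, adjusted p = 0.0476 over all probe sets). RIGI, a sensor of RNA ends, read 61.4, 86.2 and 83.3 in 10A/143B and 60.1, 85.0 and 71.0 in 468/143B, with overlap and a difference of 0.08 (95% interval -0.35 to 0.50, adjusted p = 0.797, or 0.914 averaged). Another RIGI probe set was higher, 64.9 against 29.6 (0.84, adjusted p = 0.0123 over all probe sets). TLR3, an endosomal RNA sensor, was dim at means of 9.34 and 8.81 (0.02, adjusted p = 0.935).

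CGAS and STING1 of the DNA route were both lower in 10A/143B. IFI16, which also takes part in DNA sensing and is counted below with the induced genes, was higher (0.57). CGAS, the DNA sensor that makes the messenger cGAMP, read 7.16, 18.6 and 26.5 in 10A/143B and 69.1, 83.3 and 60.5 in 468/143B. Every 10A/143B array was below every 468/143B array, and the level was 2.67-fold lower (-1.41 ± 0.25, adjusted p = 0.00234, or 0.0142 averaged). The CGAS probe set is an _s_at set, which can also match related transcripts, and its other probe sets did not pass. STING1, the receptor of cGAMP, read 28.8, 34.3 and 26.5 in 10A/143B and 53.4, 74.5 and 61.8 in 468/143B. Its groups did not overlap, but averaging ended the call (-0.78 ± 0.19, adjusted p = 0.0102, or 0.115 averaged, or 0.0474 averaged and blocked). The other STING1 probe set did not pass, at 34.3 against 39.5 (-0.15, adjusted p = 0.611 over all probe sets). The difference between the routes was not tested.

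**Figure D2:**
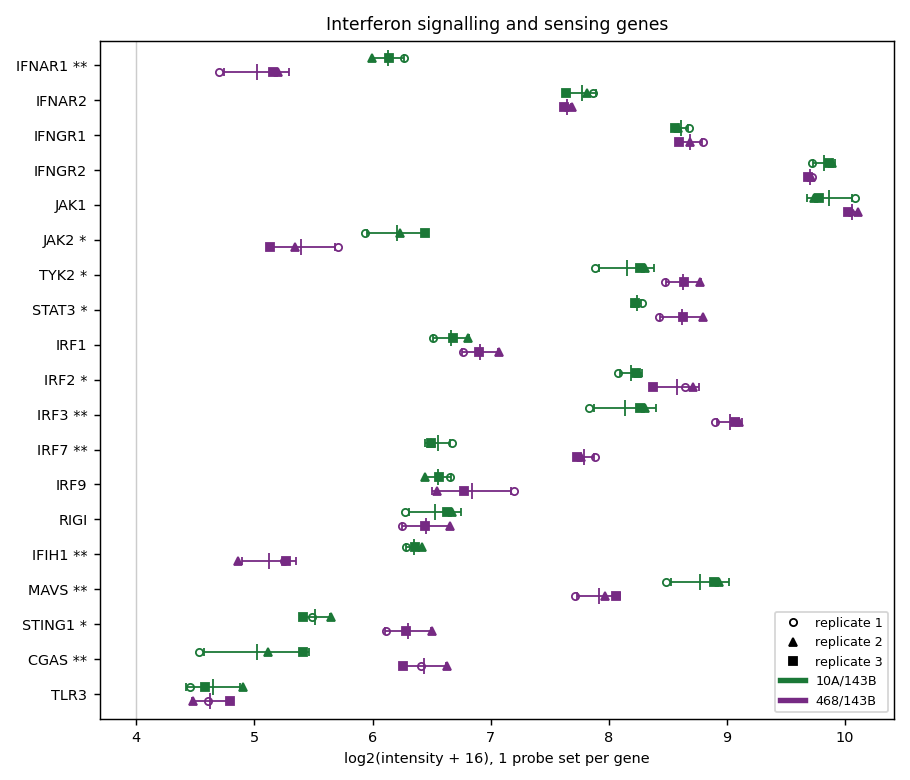
Log2(intensity + 16) of 19 interferon signalling genes (x axis), 1 probe set per gene, on 3 10A/143B arrays (green) and 3 468/143B arrays (purple); symbols mark the replicate, vertical ticks the mean and horizontal bars 1 SD. Genes with 1 star passed with 6 arrays and those with 2 stars also with replicates 2 and 3 averaged. IFNAR1, IFIH1 and MAVS lie to the right in 10A/143B, and IRF3, IRF7 and CGAS to the left.

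Most induced genes with a promoter in the table hold a match to the element through which type I interferon acts. RefSeq promoters (GRCh38.p14, from 250 bases before the start to 50 after) were found for 37 of the 50 genes. They were searched on both strands for the core of the interferon-stimulated response element, which is GAAA, any 2 bases and GAAA again. Overlapping matches were each counted. Of the 23 induced genes with a promoter, 18 held the core (78.3%), against 2 of 14 signalling genes (14.3%, IFIH1 and TLR3) and 4.38% of the 27305 genes in the table. The core was found in genes of every outcome, in 4 of 5 induced genes that were higher in 10A/143B, 5 of 6 that were lower and 9 of 12 that did not pass. The gamma-activated site (TTC, any 3 bases, GAA, either strand) was in 9 of 23 induced genes (39.1%), 3 of 14 signalling genes (21.4%, IRF1, IRF9 and TLR3) and 9.38% of all genes. It can overlap the response element core, as it did in BST2, IFI27, IFITM1 and MX1. A match is a description of these letters and not a shown binding site.

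The 250 bases before the start are printed for the core-holding genes that passed both fits with the largest changes, ISG15 and IFI6 (lower in 10A/143B) and DDX60 and PARP14 (higher). IFI44 and IFI44L, which hold the core and did not pass, stand beside them. Each reads 5′ to 3′ on the gene's strand, and capitals mark the core.
ISG15 promoter: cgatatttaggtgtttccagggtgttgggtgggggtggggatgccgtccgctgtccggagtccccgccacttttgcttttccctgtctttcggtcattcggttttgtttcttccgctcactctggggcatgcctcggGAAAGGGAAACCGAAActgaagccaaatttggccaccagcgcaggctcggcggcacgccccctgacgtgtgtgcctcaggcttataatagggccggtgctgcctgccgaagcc
IFI6 promoter: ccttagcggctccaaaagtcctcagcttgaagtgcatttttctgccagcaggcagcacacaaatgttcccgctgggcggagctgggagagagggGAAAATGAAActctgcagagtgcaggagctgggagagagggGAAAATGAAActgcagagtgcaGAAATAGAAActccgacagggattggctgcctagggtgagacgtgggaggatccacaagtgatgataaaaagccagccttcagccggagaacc
DDX60 promoter: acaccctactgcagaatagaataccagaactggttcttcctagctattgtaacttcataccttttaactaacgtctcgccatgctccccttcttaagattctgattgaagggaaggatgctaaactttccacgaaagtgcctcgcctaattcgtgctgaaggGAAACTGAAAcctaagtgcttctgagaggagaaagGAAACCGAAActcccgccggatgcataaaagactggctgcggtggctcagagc
PARP14 promoter: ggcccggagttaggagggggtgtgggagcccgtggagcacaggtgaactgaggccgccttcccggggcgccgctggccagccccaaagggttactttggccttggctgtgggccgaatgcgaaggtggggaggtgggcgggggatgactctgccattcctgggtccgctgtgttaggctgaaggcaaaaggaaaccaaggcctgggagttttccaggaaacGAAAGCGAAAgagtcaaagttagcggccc
IFI44 promoter: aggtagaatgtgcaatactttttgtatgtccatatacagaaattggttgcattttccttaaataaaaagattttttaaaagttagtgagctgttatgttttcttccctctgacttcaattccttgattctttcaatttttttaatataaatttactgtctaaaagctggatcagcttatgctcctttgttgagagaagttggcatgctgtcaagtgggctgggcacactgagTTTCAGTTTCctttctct
IFI44L promoter: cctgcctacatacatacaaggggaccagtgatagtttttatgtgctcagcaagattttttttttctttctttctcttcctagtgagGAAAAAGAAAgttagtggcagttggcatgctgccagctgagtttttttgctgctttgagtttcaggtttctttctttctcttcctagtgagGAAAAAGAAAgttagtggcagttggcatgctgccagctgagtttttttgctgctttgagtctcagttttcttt
In GRCh38.p14 the ISG15 stretch is chr1:1013247-1013496 (plus strand) and that of IFI6 chr1:27672193-27672442 (minus strand). DDX60 is at chr4:168318753-168319002 (minus strand) and PARP14 at chr3:122680589-122680838 (plus strand). IFI44 lies at chr1:78649539-78649788 (plus strand) and IFI44L at chr1:78620198-78620447 (plus strand). ISG15 has a pair of overlapping matches 107 and 113 bases before the start, counted to the first base of the match. IFI6 has 3 matches, from 93 to 156 bases before it. DDX60 has matches 53 and 88 bases before the start, and PARP14 has 1, 29 bases before. The same core thus stands before genes that differed in opposite directions.

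**Figure D3:**
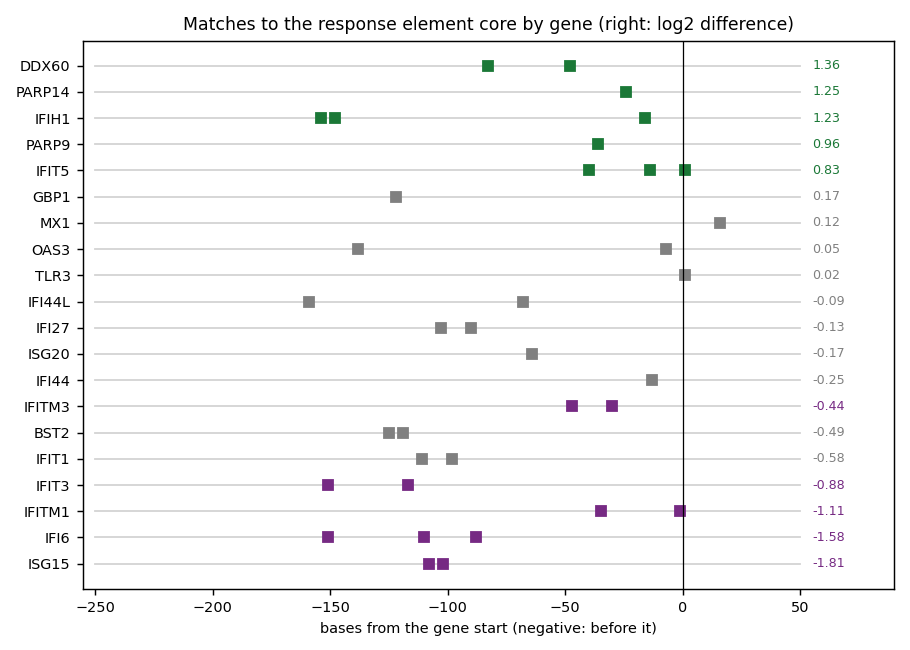
Position of matches to the response element core (squares, at the middle of the match) in a single promoter window of each of 20 genes. The x axis runs from 250 bases before to 50 bases after the start, and genes are in order of their log2 difference (printed at the right). IFI27, IFI44, IFIT3 and MX1 also had matches in another window, which is not drawn. Green genes passed as higher in 10A/143B, purple as lower, and grey did not pass; matches lie before the start in genes of all 3 colours.

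ISG15, a ubiquitin-like protein that is joined to other proteins, had the largest difference of the 49 genes. Its intensities were 288, 232 and 232 in 10A/143B and 1038, 826 and 898 in 468/143B. The lowest 468/143B array was well over the highest 10A/143B array, and the level was 3.51-fold lower in 10A/143B (-1.81 ± 0.11, adjusted p = 9.72e-06, or 0.000367 averaged). USP18, which removes ISG15 from proteins and dampens the type I receptor, read 61.4, 34.5 and 25.6 in 10A/143B and 64, 43.4 and 41.4 in 468/143B. Its replicate 1 was the highest in both groups, the groups overlapped and the difference was -0.25 (95% interval -0.86 to 0.36, adjusted p = 0.538, or 0.77 averaged). ISG20, an RNA-cleaving exonuclease, read 168, 132 and 152 in 10A/143B and 194, 156 and 162 in 468/143B, a difference of -0.17 (95% interval -0.47 to 0.13, adjusted p = 0.39, or 0.615 averaged). ISG15 therefore passed without USP18 and ISG20; the difference between them was not tested.

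The IFI genes, grouped by name and not by function, gave 1 lower and 1 higher gene of 6. Over all genes 15.7% were lower and 19.9% higher. IFI6, an antiviral membrane protein, read 21.3, 41.1 and 33.6 in 10A/143B and 148, 109.9 and 119 in 468/143B. No arrays overlapped, and it was 2.98-fold lower in 10A/143B (-1.58 ± 0.21, adjusted p = 0.00042, or 0.00548 averaged). IFI16, a nuclear DNA-binding protein that takes part in DNA sensing, read 1075, 1046 and 989 in 10A/143B and 714, 695 and 676 in 468/143B. The groups did not overlap, and the level was 1.48-fold higher in 10A/143B with little spread (0.57 ± 0.06, adjusted p = 0.000138, or 0.00632 averaged). Another IFI16 probe set passed the same way (0.47, adjusted p = 0.00134), and the other had a difference of -0.13 (adjusted p = 0.785).

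IFI35, a cytosolic interferon-induced protein, read 48.2, 30.9 and 36.8 in 10A/143B and 71.5, 51.3 and 70.5 in 468/143B. Its arrays did not overlap, yet it did not pass, with a difference of -0.56 (95% interval -1.02 to -0.10, adjusted p = 0.0621, or 0.271 averaged). With the replicate number as a block its adjusted p was 0.032, but 0.145 averaged and blocked. IFI27, IFI44 and IFI44L, which rise strongly in many cells given interferon, were near the bottom of the scale here. Their intensities lay between 1 and 38.1 on all arrays, and their differences were -0.13, -0.25 and -0.09 (adjusted p = 0.495, 0.693 and 0.663).

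The IFIT genes, RNA-binding antiviral proteins that lie together on chromosome 10, moved in opposite directions. IFIT5 read 236, 187 and 214 in 10A/143B and 119, 100.4 and 116 in 468/143B, with no overlap, and was 1.78-fold higher in 10A/143B (0.84 ± 0.13, adjusted p = 0.000855, or 0.014 averaged). The second IFIT5 probe set was higher too, 68.5 against 37.2 (0.67, adjusted p = 0.0157). IFIT3 read 5.74, 17.0 and 14.7 in 10A/143B and 42.8, 32.0 and 32.2 in 468/143B. It was dim in both cybrids and 1.83-fold lower in 10A/143B (-0.88 ± 0.22, adjusted p = 0.0124, or 0.0489 averaged). IFIT2 had means of 11.9 and 28.4 and passed as lower with 6 arrays (-0.66 ± 0.19, adjusted p = 0.0268, or 0.0919 averaged, or 0.0475 averaged and blocked). The second probe sets of IFIT3 and IFIT2 did not pass (-0.51 and -0.17, adjusted p = 0.0722 and 0.629 over all probe sets). IFIT1, at 27.0 and 47.0, did not pass (-0.58, adjusted p = 0.13), although its arrays did not overlap. The 20 genes around them had a median difference of -0.01.

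The IFITM genes encode small membrane proteins that block the entry of viruses. All 3 were lower in 10A/143B with 6 arrays, where 15.7% of all genes were lower. IFITM2 read 2628, 3236 and 3373 in 10A/143B and 4240.4, 4211 and 4211 in 468/143B and was 1.38-fold lower in 10A/143B (-0.46 ± 0.09, adjusted p = 0.00373, or 0.0207 averaged). IFITM3 read 2740.1, 3327 and 3492 in 10A/143B and 4096, 4451 and 4359.7 in 468/143B and was 1.35-fold lower (-0.44 ± 0.09, adjusted p = 0.0052, or 0.0302 averaged). Neither pair of groups overlapped, and replicate 1 of 10A/143B was the lowest array of both genes. Both probe sets are _x_at sets, which can match the near-identical paralogs, so their signals cannot be told apart fully. With the trend on gene length removed (below) IFITM3 had a difference of 0.019 and IFITM2 no longer passed. IFITM1 had means of 66.04 and 163, with replicate 1 low in both groups, and passed as lower with 6 arrays although the groups overlapped (-1.11 ± 0.37, adjusted p = 0.0484, or 0.14 averaged, or 0.00189 averaged and blocked).

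DDX60, a helicase related to RIGI that takes part in RNA sensing, read 124, 133 and 136 in 10A/143B and 45.6, 45.3 and 33.8 in 468/143B. The groups were far apart, and the level was 2.57-fold higher in 10A/143B (1.36 ± 0.16, adjusted p = 0.000196, or 0.00771 averaged). Its 20 neighbours on chromosome 4 had a median of 0.43. BST2 (tetherin, which holds virus particles at the cell surface) and XAF1 (a factor in cell death) lay between 2.31 and 21.9 on all arrays and did not pass (-0.49 and 0.02, adjusted p = 0.106 and 0.956). BST2 was lower on every 10A/143B array than on any 468/143B array.

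PARP9 and PARP14, ADP-ribosyltransferase family members that lie near each other on chromosome 3, were both higher in 10A/143B. PARP9 read 57.3, 60.5 and 52.7 in 10A/143B and 14.7, 27.3 and 23.8 in 468/143B and was 1.94-fold higher (0.96 ± 0.20, adjusted p = 0.00498, or 0.0453 averaged). PARP14 read 99.0, 122 and 97.0 in 10A/143B and 43.4, 27.9 and 34.8 in 468/143B and was 2.38-fold higher (1.25 ± 0.18, adjusted p = 0.000761, or 0.0185 averaged). Neither overlapped between groups. The second probe sets of PARP9 and PARP14 did not pass (0.14 and -0.20, adjusted p = 0.67 and 0.499). DTX3L, the ubiquitin ligase that pairs with PARP9, lies at the same place and was higher as well, 451 and 217 in mean intensity (1.01 ± 0.11, adjusted p = 0.00011, or 0.00262 averaged). A promoter window of PARP9 and the one of DTX3L lie on opposite strands and share 137 bases. The 20 genes around PARP9 had a median of -0.09.

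The classic antiviral effectors of the MX and OAS families did not pass on the probe set used (limma, 0 of 6, and 0 at an unadjusted p under 0.05), where 35.6% of all genes passed. Without 10A/143B replicate 1, OAS1 passed as lower (-0.72, adjusted p = 0.0374) and OASL as higher (0.66, adjusted p = 0.00289). The MX genes encode dynamin-like GTPases, and their intensities lay between 14.0 and 33.6 on all arrays, with differences of 0.12 for MX1 and 0.27 for MX2 (adjusted p = 0.689 and 0.326). The OAS genes encode enzymes that activate the nuclease RNase L. OAS3 read 115, 129 and 147 in 10A/143B and 89.3, 153 and 142 in 468/143B, which overlapped, with a difference of 0.05 (95% interval -0.40 to 0.49, adjusted p = 0.886, or 0.825 averaged). OAS1 and OAS2 were between 2.14 and 29.9 on all arrays (-0.42 and -0.26, adjusted p = 0.327 and 0.336).

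OASL, an OAS relative that binds RIGI, read 129.8, 385 and 372 in 10A/143B and 214, 219.8 and 274 in 468/143B. Replicate 1 of 10A/143B was the lowest and the other two the highest of all 6, so the groups overlapped, with a difference of 0.18 (95% interval -0.62 to 0.97, adjusted p = 0.75, or 0.97 averaged). The other OASL probe set was lower in 10A/143B, 27.7 against 75.8 (-1.06, adjusted p = 0.00617 over all probe sets). The probe sets of OASL thus read differently.

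Guanylate-binding proteins are GTPases induced above all by interferon gamma. GBP1 read 52.0, 35.5 and 46.9 in 10A/143B and 35.3, 41.4 and 37.0 in 468/143B, with overlap and a difference of 0.17 (95% interval -0.26 to 0.59, adjusted p = 0.557, or 0.669 averaged). Another GBP1 probe set was higher, 37.2 against 21.2 (0.52, adjusted p = 0.0498 over all probe sets), and one was 16.8 against 35.4 (-0.64, adjusted p = 0.0527), so the GBP1 probe sets disagreed. GBP2 had means of 11.3 and 25.8 and was lower with 6 arrays (-0.63 ± 0.19, adjusted p = 0.0299, or 0.181 averaged). The other GBP2 probe set did not pass (0.02, adjusted p = 0.955 over all probe sets). SP110, a nuclear body protein, had means of 231 and 332 and was lower with 6 arrays (-0.50 ± 0.12, adjusted p = 0.0091, or 0.127 averaged). Its other probe sets were lower at -0.56 and -0.27 (adjusted p = 0.0393 and 0.0405 over all probe sets) or did not pass, at 0.46 and -0.16 (adjusted p = 0.112 and 0.615).

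**Figure D4:**
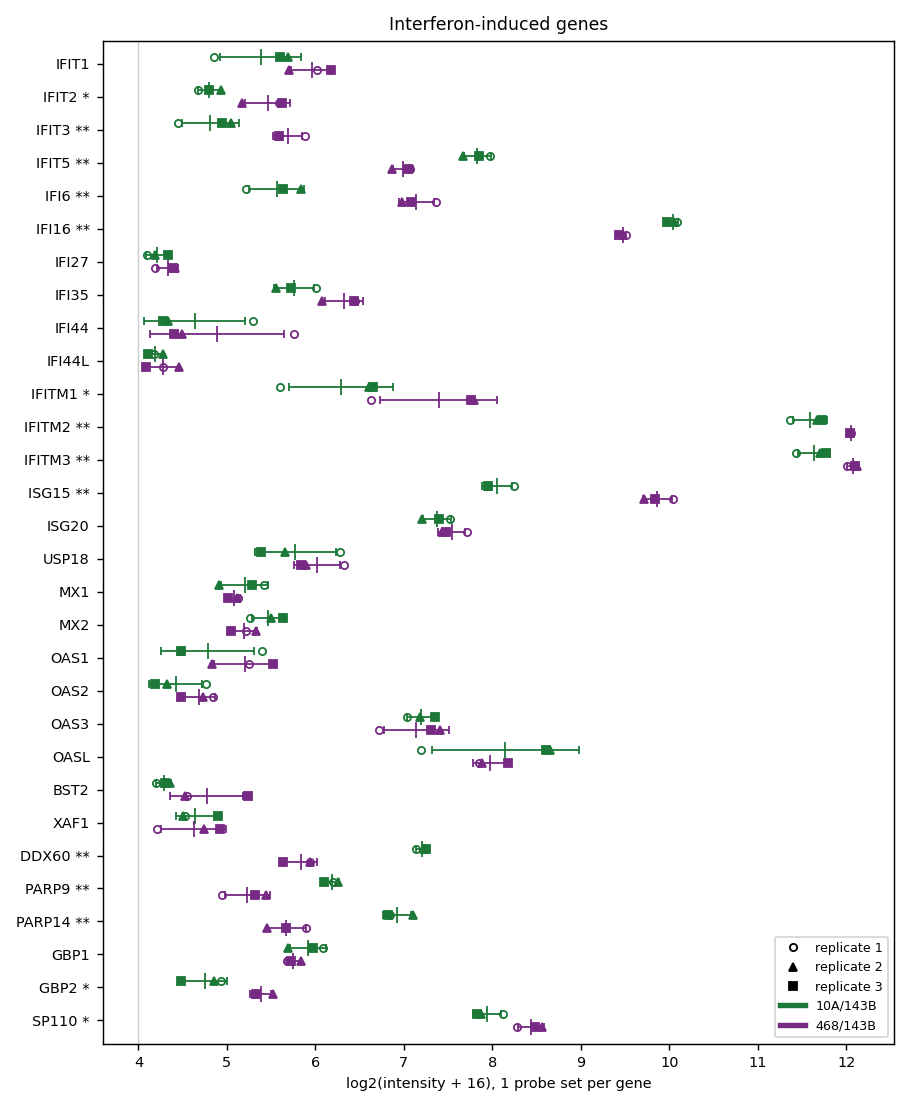
Log2(intensity + 16) of 30 interferon-induced genes (x axis), 1 probe set per gene, on 3 10A/143B arrays (green) and 3 468/143B arrays (purple); symbols mark the replicate, vertical ticks the mean and horizontal bars 1 SD. Genes with 1 star passed with 6 arrays and those with 2 stars also with replicates 2 and 3 averaged. ISG15 and IFI6 lie to the left in 10A/143B, and IFIT5, DDX60, PARP9 and PARP14 to the right.

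Several probe sets were present for 29 of the 49 genes. Over all 102 probe sets, 19 passed as higher and 19 as lower, where 18.6% of all 41091 probe sets were higher and 12.4% lower, and 0 genes passed both ways. In 5 genes (IFNAR2, JAK1, RIGI, OASL and GBP1) the probe set used did not pass but another did. How often genes passed both ways, or only on another probe set, was not computed over all genes. Under each of 18 alternatives of processing and left-out arrays that gave them a value, 11 genes passed: IFNAR1, IFIH1, MAVS, IRF3 and IRF7 of the signalling genes and IFIT3, IFIT5, IFI6, ISG15, DDX60 and PARP14 of the induced ones. IRF7, IFIT5, ISG15 and DDX60, 4 of the 11, had no value in the alternative without _x_at and _s_at probe sets. The share of all genes that passed under all 18 was not computed.

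Gene length went with the difference over all genes and over the members. Among genes brighter than a log2 level of 7, the median difference was -0.28 below the 10th percentile of length and 0.41 above the 90th. The 9 higher members had a median length percentile of 68.6, with 8 above the 50th, and the 16 lower ones 21.2, with 5 above it. ISG15 lies at percentile 1.87 and DDX60 at 84.8, whereas IFIT5 (19.3, higher) and IRF2 (80.5, lower) go against that order. With the trend on length removed, the median difference was 0.0005 for signalling genes and -0.045 for induced genes. The median over all genes rose from -0.02 to 0.07 under that setting, so both lists stayed below it. JAK2, STING1, IFIT2, IFITM1, IFITM2, IFITM3 and GBP2 then no longer passed, ISG15 still did (-1.34) and so did DDX60 (1.08). JAK1 newly passed as lower (-0.54, limma adjusted p = 0.0023).

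**Figure D5:**
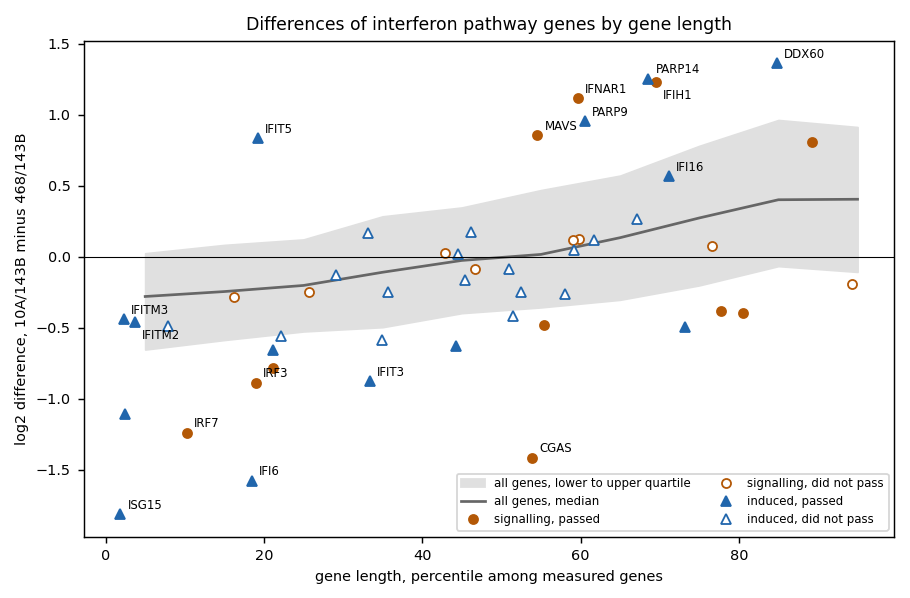
Log2 difference of 49 interferon pathway genes (y axis) against the percentile of their gene length among measured genes (x axis). Circles are signalling and triangles induced genes, filled where they passed with 6 arrays and named where they also passed with the near duplicates averaged; the line and band are the median and the quartiles, in steps of 10 percentiles, of all genes with a mean log2 level above 7, whereas the 49 genes are plotted at any level. The line runs from -0.28 to 0.41, ISG15 lies below it and IFIT5 and DDX60 above it.

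Interferon genes themselves were dim. Of 18 measured, 15 had mean intensities below the lowest array median in both cybrids, IFNB1 at 2.58 and 3.53 and IFNG at 4.28 and 6.14. In limma 0 were higher (0 at an unadjusted p under 0.05, and 0 averaged), and IFNA16, at 229.7 and 345, was lower with 6 arrays (-0.59 ± 0.17, adjusted p = 0.0237, or 0.14 averaged). IFNA16 has only an _x_at probe set, which can match other transcripts, so its reading may not be IFNA16 alone. IFNA17, the next brightest IFNA gene, read 21.9 and 20.8. The count of 1 in 18 stands beside 15.7% of all genes.

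The rest of the pathway also went both ways. For comparison, 19.9% of all genes were higher and 15.7% lower, or 13.8% and 8.9% averaged. Of 21 further signalling genes, 6 were higher and 6 lower (28.6% each), or 4 and 2 averaged. They included TRAF3 (435 and 135, 1.57 ± 0.09, adjusted p = 6.92e-06, or 0.00048 averaged), an adaptor downstream of MAVS. TRIM25, a ubiquitin ligase of the RIGI route, had means of 1267 and 544 (1.23 ± 0.18, adjusted p = 0.000801, or 0.00386 averaged). TBK1, the kinase that phosphorylates IRF3, had means of 187 and 83.3 (1.03 ± 0.12, adjusted p = 0.000256, or 0.0123 averaged). IRF8, a factor of white blood cells, was lower (108 and 189.8, -0.74 ± 0.14, adjusted p = 0.00265, or 0.0269 averaged).

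Among 17 inhibitors of the pathway, 4 were higher and 4 lower (23.5% each), or 3 and 2 averaged (17.6% and 11.8%). Over all genes the shares were 19.9% and 15.7%, or 13.8% and 8.9% averaged. The phosphatase PTPN11 (1703 and 606) was higher, 1.47 ± 0.07, adjusted p = 3.39e-06, or 0.000278 averaged. PTPN2, a phosphatase of JAK1 and STAT factors, was higher too (961 and 495, 0.93 ± 0.07, adjusted p = 1.57e-05, or 0.000973 averaged). OTUD5, which removes ubiquitin from TRAF3, was lower (109 and 204, -0.83 ± 0.15, adjusted p = 0.0026, or 0.0231 averaged). SOCS2, a feedback inhibitor of cytokine receptors, was lower (510.1 and 731, -0.51 ± 0.07, adjusted p = 0.00042, or 0.014 averaged).

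Of 48 further induced genes, 12 were higher and 8 lower (9 and 5 averaged), with a median difference of 0.0032. Among all genes 19.9% were higher and 15.7% lower, or 13.8% and 8.9% averaged, and the median was -0.02. ZC3HAV1, an antiviral protein that binds CpG-rich RNA, was higher (465 and 81.5, 2.31 ± 0.13, adjusted p = 6.89e-06, or 0.000265 averaged). GBP3 was higher (67.9 and 18.3, 1.29 ± 0.18, adjusted p = 0.000612, or 0.0164 averaged), as was the antiviral gene SAMD9 (44.9 and 9.96, 1.24 ± 0.19, adjusted p = 0.00105, or 0.0137 averaged). PML, the scaffold of nuclear bodies, was lower (93.9 and 245, -1.22 ± 0.23, adjusted p = 0.00283, or 0.0236 averaged).

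Markers of other cells were counted the same way, beside 19.9% higher and 15.7% lower among all genes. Of 9 white blood cell markers 1 was lower (MS4A1), and their summed intensity ran from 123.8 to 139.6 in 10A/143B and from 156.2 to 181.7 in 468/143B. Their defining gene PTPRC was at 12.4 and 12.6 in mean intensity. Of 9 epithelial markers, 1 was higher (KRT15, 109 and 75.5) and 1 lower (KRT19), with sums of 196.5 to 252.1 and 173.2 to 180.4. Of 3 endothelial markers 1 was higher (PECAM1, 155 and 112). Of 8 mesenchymal or osteoblast markers, 3 were lower (RUNX2, SPARC and TWIST1), with sums of 10610.0 to 11301 and 11517 to 12691. The part of these cells in the differences of the interferon genes was not tested.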

How the data were processed

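Messenger RNA was measured in 2 cybrids, 3 arrays each, which were grouped and numbered by source name (titles number the same arrays otherwise, in the same pairs). The authors deposited 1 linear intensity per probe set and array. How they summarised probes, subtracted background and scaled arrays is not given in the sources used here. Intensities ran from 1 to 13124.7, and 100% were whole multiples of 0.01 on the log2 scale (tolerance 1e-05). On each array 1461 to 1566 of 54675 probe sets stood at the lowest value. Without detection calls a low intensity cannot be named background, and precision is limited by the number of arrays.

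The platform's probe table gave gene names (42898 probe sets listed, 41097 with 1 symbol, 1801 with several and not named), with symbols of 41037 updated through Entrez identifiers to RefSeq GRCh38.p14. Each gene was represented by its brightest probe set over 6 arrays. Groups were compared on log2(intensity + 16) by limma 3.58.1 (R 4.3.3; lmFit, then eBayes with trend), values otherwise as deposited, with Benjamini-Hochberg adjustment at 0.05. The script was tested on simulated data.

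Over the 9220 probe sets brighter than 8 (log2), the SD of the difference between replicates 2 and 3 was 0.08 in 10A/143B and 0.09 in 468/143B, and between either and replicate 1 it was 0.27 to 0.29. Deviations of same-numbered arrays from their group means correlated between groups at 0.27, 0.23 and 0.21 for replicates 1, 2 and 3. The correlation of replicate 2 with 3 across groups was 0.26 and of 3 with 2 0.20. The numbers were therefore used as a block that sets replicate 1 apart, but they do not tell replicates 2 and 3 apart. Blocking the averaged fit does not need that, yet its 2 samples against 2 leave little to estimate the spread from.

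The genes and lists were chosen with earlier results of these data known. Every member is named. Values of every array are given for members that passed both fits, for the receptor, kinase, IRF9 and sensor genes listed for it (JAK2 and TLR3 not among them) and for the 6 brightest induced members that passed neither. Other members are given by mean or range, and up to 4 genes of each further list that passed both fits are named with their values.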

Additional observations from a re-analysis of the deposited data

How the results depend on the processing

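The 49 measured members were recomputed under 18 alternatives. With the replicate number as a block, 10 induced genes were lower (IFI35 added, adjusted p = 0.032), and the block changed no other call of a member with 6 arrays. With replicates 2 and 3 averaged, 3 signalling and 5 induced genes were lower and the signalling median was -0.14. With block and averaging together 6 and 7 were lower (TYK2, IRF2, STING1, IFIT2 and IFITM1 restored), the median was again -0.14, and IFI35 was not called (adjusted p = 0.145). Leaving out 1 array gave 4 to 8 lower signalling genes, and medians of -0.21 to -0.10 (signalling) and -0.33 to -0.16 (induced); the lowest count, 4, came without 468/143B replicate 2. Without _x_at and _s_at probe sets, 38 members remained, with 4 signalling genes lower, 1 induced gene higher and 5 lower, and medians of -0.10 and -0.19; OASL was then -1.06. With the trend on gene length removed, 7 signalling genes (JAK1 added and STING1 lost) and 4 induced genes were lower. The medians were then 0.0005 and -0.045, against 0.07 over all genes, and IFITM3 was 0.019. The induced median was -0.45 with an offset of 1, -0.12 with 64, -0.31 after quantile normalization, -0.34 with the level filter and -0.18 when all probe sets of a gene were averaged. Median centring gave medians of -0.29 and -0.35 and a median over all genes of -0.12, where it was -0.02. It also moved the share of higher genes among all calls from 55.8% to 46.0% (45.7% with quantile normalization). The causes were not tested beyond what each alternative changes. For dim genes such as IFI27, IFI44, IFI44L and most interferons, how far the signal stood above background cannot be told without detection calls.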
